A study of Mus musculus with 8 samples.

Results

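The Hox genes of mouse muscle stem cells were followed from the freshly sorted state into 48 h of culture. Members were the lines of the count table whose symbol is Hoxa, Hoxb, Hoxc or Hoxd with a paralog number, which gave 39 of 45706 lines. They comprised 11 Hoxa, 10 Hoxb, 9 Hoxc and 9 Hoxd genes. The rule used symbols alone, though it was set with earlier results of these data known. Muscle stem cells are the resident progenitors of skeletal muscle. RNA was sequenced from 8 libraries, 5 of fresh cells and 3 of cultured cells. All groups came from hindlimb muscle of female WT C57BL/6 mice aged 8 to 12 weeks. The sort took CD34+ cells with α7-integrin and left out cells with CD45, Sca1, CD31 or CD11b. Cultured cells were kept on a hydrogel of 12 kPa, in a medium with 20% FBS, Low Glucose DMD and F-10. Fresh replicates 1 to 3 were sequenced in run 1, and run 2 held fresh replicates 4 and 5 together with all cultured libraries. The labels do not say whether replicates came from separate mice, pooled mice or separate cultures, so the spread behind each p-value is between these libraries alone and could be technical. No forelimb, trunk or head muscle was included, so no level here could be set against another body position.

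Hox genes encode homeodomain transcription factors that record where along the body axis a cell arose. In mammals they lie in 4 clusters, and within a cluster the genes of low paralog number are used toward the head and those of high number toward the tail and the ends of the limbs. Adult fibroblasts and muscle stem cells are known to keep a Hox code of their embryonic origin. Hox proteins bind DNA with cofactors of the Pbx, Meis and Pknox families, while Polycomb complexes silence and Trithorax complexes maintain the clusters.

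In mm10 (GRCm38) with the GENCODE M21 annotation, Hoxa lay at chr6:52155590-52260880 on the minus strand. Hoxb lay at chr11:96194316-96368256, Hoxc at chr15:102921103-103036852 and Hoxd at chr2:74668310-74765142, all on the plus strand. Each member is a protein-coding gene. The homeobox, the coding stretch of 180 bases for the DNA-binding domain, ties the family together. Its 51 bases around the recognition helix are printed for the most abundant member, its paralog in Hoxa, and Hoxc6 and Hoxc8, which fell in culture. They show how alike genes with unlike levels are. The sequences are of the GENCODE M21 transcripts, and capitals mark bases that differ from Hoxc10.
Hoxc10 (chr15:102970971-102971021, plus strand): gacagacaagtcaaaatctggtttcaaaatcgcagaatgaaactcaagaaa
Hoxa10 (chr6:52232560-52232610, minus strand): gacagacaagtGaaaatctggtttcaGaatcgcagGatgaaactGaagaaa
Hoxc6 (chr15:103010877-103010927, plus strand): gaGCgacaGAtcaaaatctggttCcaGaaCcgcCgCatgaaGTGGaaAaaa
Hoxc8 (chr15:102992694-102992744, plus strand): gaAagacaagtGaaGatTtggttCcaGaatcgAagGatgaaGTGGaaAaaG
Hoxa10 differed from Hoxc10 at 4 of the 51 bases, and Hoxc6 and Hoxc8 each at 14. Over the whole homeobox, the 12 members with a mean of at least 5 CPM (counts scaled to a common library size) shared from 51.7% to 83.9% of bases in 66 pairs, with a median of 64.4%.

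Libraries held 13919508 to 20068199 expected counts. Levels are CPM of the TMM-scaled library, and levels of different genes are compared only per kb of exon. The run-1 fresh libraries stood apart in rarely used genes. Olfactory receptor genes, which serve smell and are taken here as silent in muscle, had a count in 68.3 to 89.9% of 1025 lines in run-1 fresh libraries. That share was 1.76 to 2.63% in run-2 fresh libraries and 0.488 to 0.878% in cultured libraries. The 95th percentile of these genes lay between 0.355 and 1.12 CPM per kb in run 1 and at 0 in run 2. All 8 muscle stem cell markers listed, Pax7 among them, had counts in both groups.

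**Figure D1:**
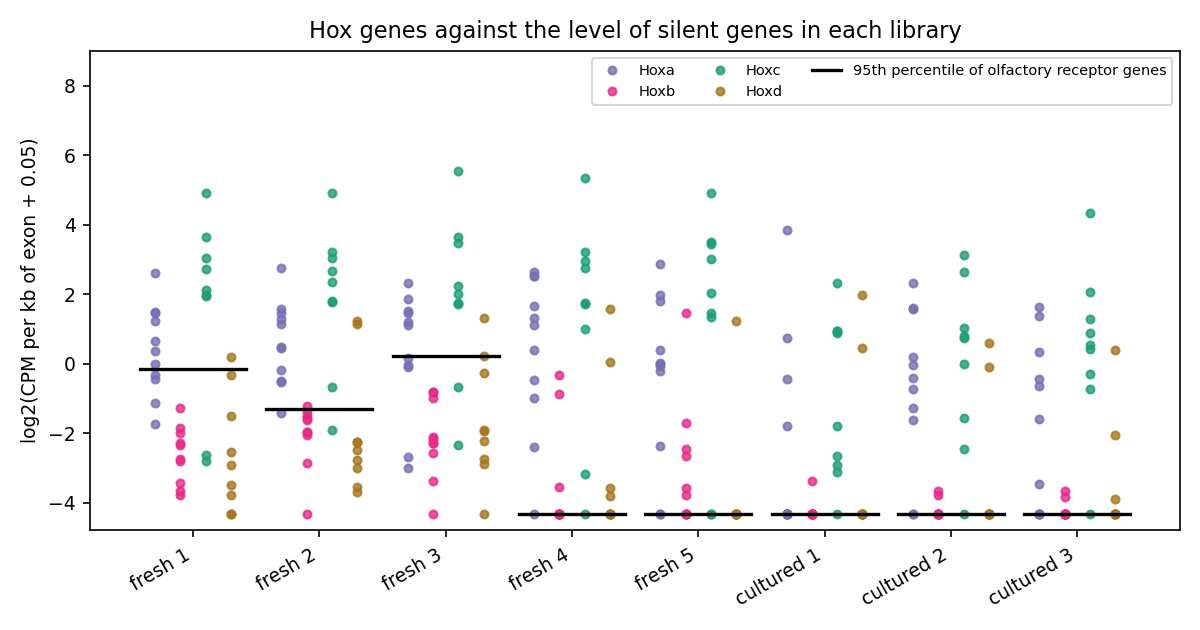
CPM per kb of exon, as log2 with 0.05 added, of the 39 Hox genes (points, by cluster) in each of the 8 libraries, with the 95th percentile of 1025 olfactory receptor genes as a black bar. The bar is raised in fresh replicates 1 to 3, where most Hoxb genes lie under it and at least 7 Hoxc genes lie above.

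Fresh muscle stem cells used a Hoxc-dominated set. Above the silent-gene level in all 5 fresh libraries were 14 members: 7 of 9 Hoxc genes, 6 of 11 Hoxa genes, 1 of 9 Hoxd genes and none of the 10 Hoxb genes. Hoxb genes above it numbered 0, 1 and 0 in fresh replicates 1 to 3, where the level was raised. They numbered 3 and 6 in fresh replicates 4 and 5. Above the silent-gene level in all 8 libraries were 10 members, again with 7 from Hoxc. In run-2 libraries, fresh and cultured, this level was 0, so any count lay above it. Hoxc4, for example, passed in cultured replicate 1 with 4 counts. Of the summed CPM per kb of all Hox genes, Hoxc genes held 72.3 ± 2.95% (SD, n = 5) in fresh libraries, Hoxa genes 21.9 ± 2.85%, Hoxd genes 3.72 ± 1.24% and Hoxb genes 2.11 ± 0.88%.

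Per kb of exon, Hoxc10 had the highest fresh level, at 35.4 ± 7.89 CPM per kb (SD, n = 5). Hox10 proteins pattern the lumbar spine and the upper hindlimb. Its lowest library, at 29.8 CPM per kb, lay above the highest library of every other member. Hoxc6 followed at 10.1 ± 1.77 CPM per kb, then Hoxc11 at 7.47 ± 4.39 and Hoxc9 at 6.93 ± 2.76. Hoxa7 at 5.52 ± 1.10 and Hoxc8 at 5.30 ± 1.97 CPM per kb came next. From Hoxc6 down to Hoxc8, neighbours in this order overlapped in their ranges over libraries. Hoxc5, Hoxa5, Hoxa10 and Hoxc4 lay between 3.47 and 3.65 CPM per kb and could not be ordered within their spread.

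**Figure D2:**
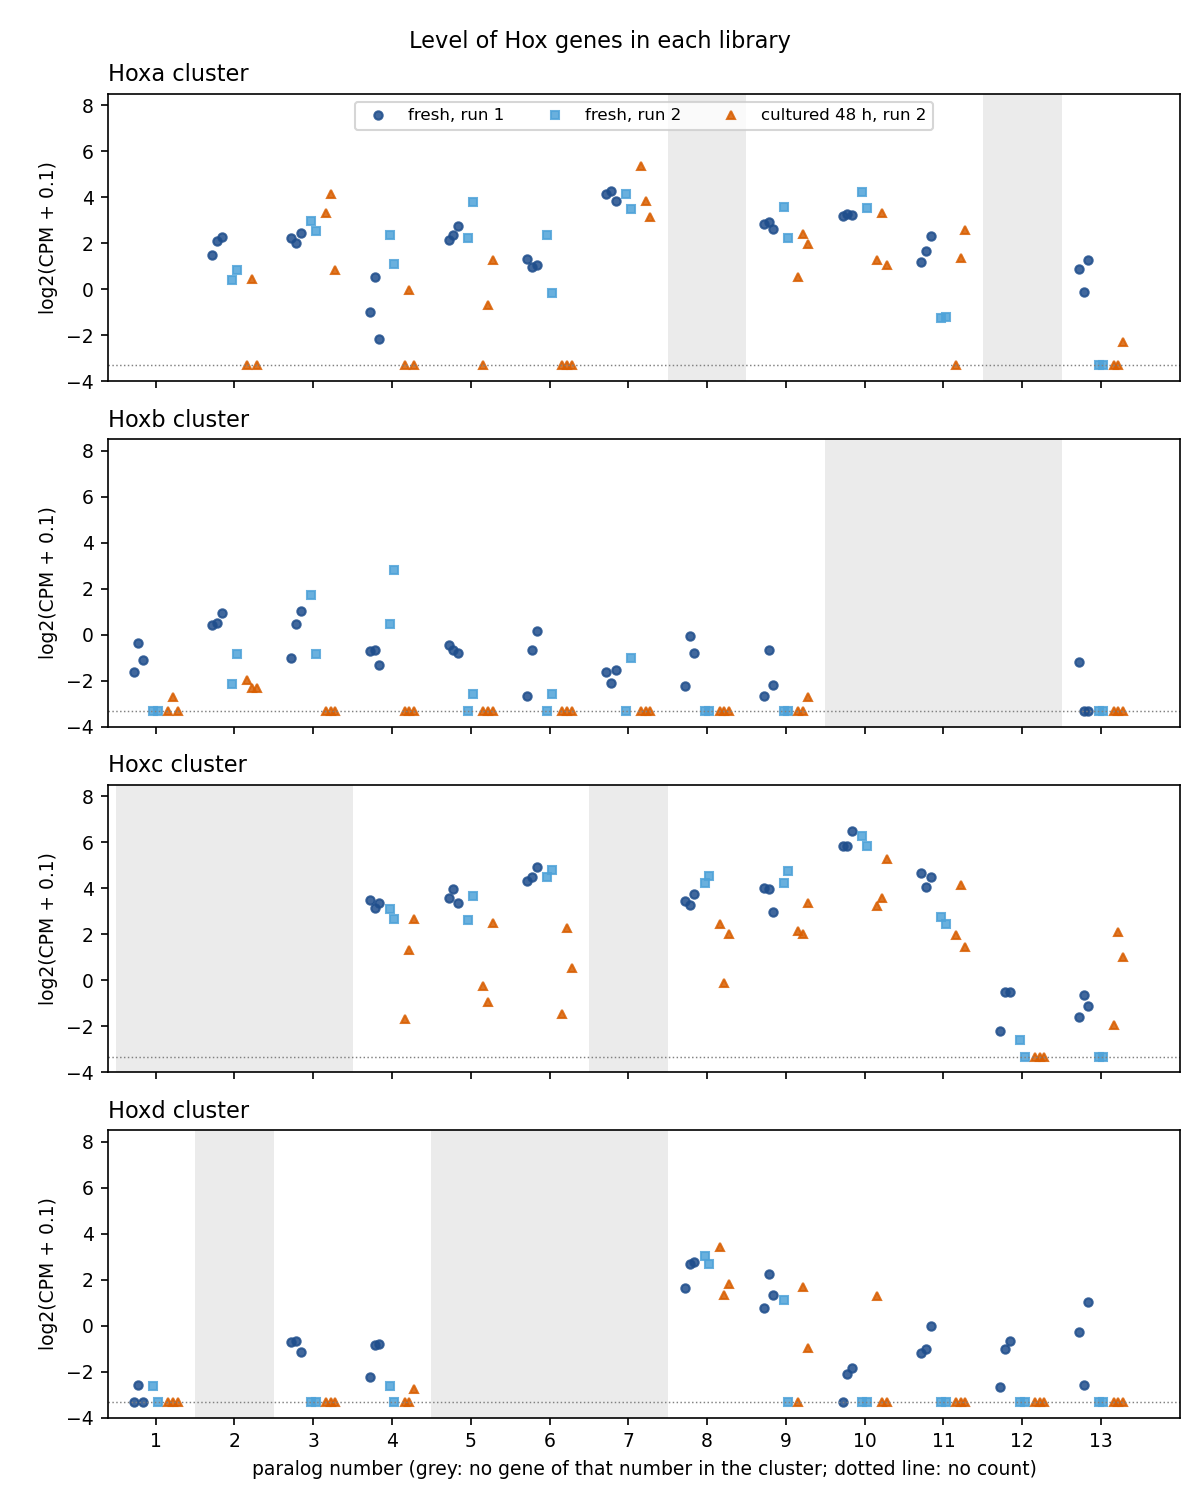
Level of 38 Hox genes, log2(CPM + 0.1), by paralog number in the 4 clusters, with 1 point for each library (circles fresh run 1, squares fresh run 2, triangles cultured). Hoxc genes 4 to 11 stand high in fresh libraries, and triangles lie under the fresh points for Hoxc4, Hoxc5, Hoxc6, Hoxc8 and Hoxc10.

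After 48 h the summed Hox level was lower by 2.38-fold. The 39 members together had 214, 223, 259, 246 and 224 CPM in fresh replicates 1 to 5, and 91.4, 103.8 and 98.4 CPM in cultured replicates 1 to 3. Every cultured library lay under every fresh one. With TMM scaling the 2 runs of fresh cells had like sums, with means of 232 and 235 CPM. Without scaling factors these means were 244 and 191 CPM and the runs did not overlap, while cultured libraries still lay lowest. With TMM scaling and Hoxc10 left out, means were 166 ± 5.10 CPM (SD, n = 5) in fresh and 78.0 ± 16.4 CPM (SD, n = 3) in cultured libraries. The groups again did not overlap. CPM are shares of a library, not amounts per cell. In bulk samples, fewer cells of a type and a smaller share of each cell's RNA cannot be told apart.

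Summed Hoxc was 160 ± 14.5 CPM in fresh libraries and 46.6 ± 22.9 CPM in cultured libraries, with no overlap. Summed Hoxb was 5.98 ± 1.83 CPM in fresh libraries and 0.155 ± 0.00267 CPM in cultured libraries, again with no overlap. The cultured value is near the floor. It rests on 3, 2 and 2 counts of Hoxb2, with 1 of Hoxb1 in cultured replicate 2 and 1 of Hoxb9 in replicate 3. Its SD leaves out counting error. In the run-1 fresh libraries 0, 1 and 0 of the 10 Hoxb genes lay above the silent-gene level, whose part in these sums was not tested. In run-2 fresh libraries Hoxb3 and Hoxb4 made up most of the sum, and Hoxb4 alone had 6.97 of 8.40 CPM in fresh replicate 5. Hoxa, at 57.8 ± 8.77 and 43.6 ± 16.7 CPM, and Hoxd, at 9.86 ± 3.43 and 7.50 ± 4.85 CPM, overlapped between groups. The cultured libraries differed from each other in makeup. Hoxc held 33.3, 55.6 and 76.6% of the summed CPM per kb in cultured replicates 1 to 3, and Hoxa held 50.8, 38.2 and 19.9%. In fresh libraries these shares ran from 68.9 to 74.9% and from 18.6 to 26.2%. Cultured replicate 3 thus had a Hoxc share no lower than fresh libraries, while replicates 1 and 2 had lower ones. Whether the clusters differed in their change was not tested.

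**Figure D3:**
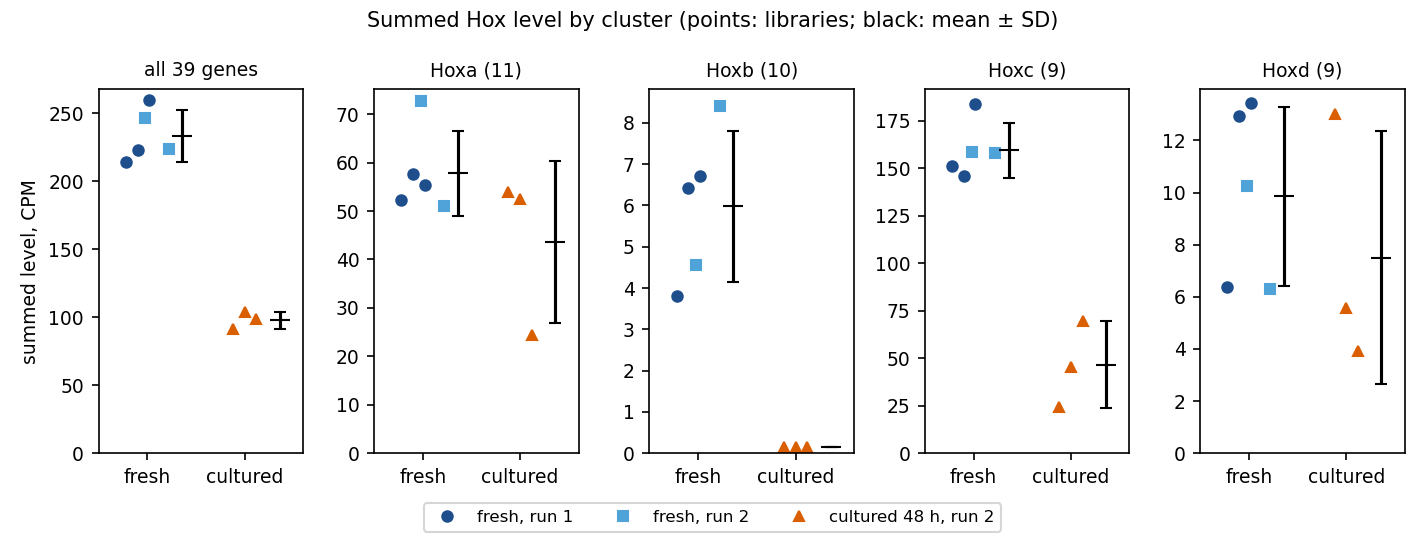
Summed CPM of all 39 Hox genes and of each cluster (panels, each with its own axis from 0) in fresh and cultured libraries, with the mean ± SD in black. Cultured points lie under all fresh points for the whole family, Hoxb and Hoxc, and overlap them for Hoxa and Hoxd.

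By paralog number, group 6 went from 27.0 ± 4.12 to 2.11 ± 2.34 CPM and group 10 from 79.2 ± 16.7 to 25.3 ± 13.6 CPM. Groups 4, 5 and 9 also lay lower in every cultured library, but without scaling factors groups 5 and 9 overlapped. Group 7 overlapped, at 16.1 ± 3.06 and 21.2 ± 17.1 CPM, and so did groups 3, 8 and 11.

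Of the 39 members, 22 passed the count filter and were tested: all 11 Hoxa genes, Hoxb2, Hoxb3, 7 Hoxc genes, Hoxd8 and Hoxd9. A member that passed only through its level in fresh cells was bound to differ, so counts among the tested members support nothing about the family. By edgeR's quasi-likelihood test with a term for run, and p-values adjusted over all genes (Benjamini-Hochberg, threshold 0.05), 4 of 22 (18.2%) were lower after culture: Hoxa6, Hoxb3, Hoxc6 and Hoxc8. Of all 19054 genes tested, 18.0% were lower, so the share among Hox genes was near the background. None of the 22 was higher, against 8.87% of all genes. At an unadjusted p under 0.05 there were 6 members lower and 0 higher, against 25.4% and 14.1% of all genes. Cultured libraries lay below every fresh library in 8 of 22 (36.4%), against 26.1% of all genes, and above in none, against 13.7%. The median log2 fold change was -1.50 for tested Hox genes and -0.21 for all genes. It was -1.88 for the 7 Hoxc genes and -1.25 for the 11 Hoxa genes.

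The count of called members rested on single libraries, and so did the set that passed the filter. Without fresh replicate 4 it was 1 of 21 tested (Hoxa6), against 13.3% of all genes. Without fresh replicate 2, 3 or 5 it was 2 of 19, 19 and 22 tested, against 15.0%, 15.1% and 13.1%. Without cultured replicate 2 or 3 it was 8 of 25 tested, Hoxb4 among them, against 17.6% and 17.1%. DESeq2 called 7 of 22 lower, adding Hoxa5, Hoxc9 and Hoxc10, against 22.8% of all genes. With run 2 alone 1 of 21 was called, Hoxb4, against 10.9%.

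**Figure D4:**
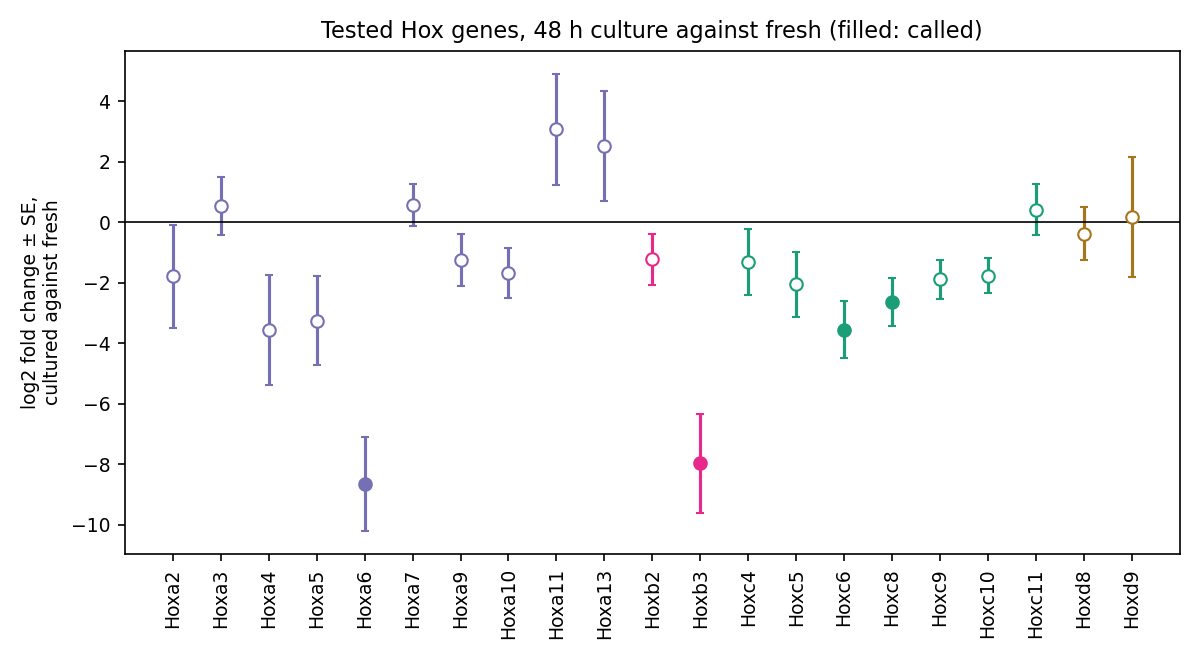
Fitted log2 fold change, cultured against fresh, with its standard error for 21 tested Hox genes, coloured by cluster; filled points are the 4 called genes. Hoxa6, Hoxb3, Hoxc6 and Hoxc8 are filled, and Hoxa7, Hoxa11, Hoxc11 and others scatter around or above 0.

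Hoxc6, whose paralog group patterns the thoracic region, had 19.8, 22.1, 30.1, 22.2 and 27.4 CPM in fresh replicates 1 to 5. In cultured replicates 1 to 3 it had 0.263, 4.73 and 1.33 CPM. No cultured library came near the fresh range. Hoxc6 fell by 3.55 ± 0.95 (SE) on the log2 scale, with an edgeR adjusted p of 0.0244. The adjusted p was 0.0769 without fresh replicate 4, 0.101 without fresh replicate 5, 0.0596 without cultured replicate 3 and 0.112 with run 2 alone. Without cultured replicate 2 the fall was 4.91 on the log2 scale.

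Hoxa6, its paralog in Hoxa, was scarce before culture and undetected after it. Its counts were 41, 28, 33, 79 and 12 in fresh replicates 1 to 5 and 0 in all 3 cultured libraries. Taking 3 counts in the cultured libraries together (0.0517 CPM) as the limit a count of 0 allows, the level was at least 56.5-fold lower than in run-2 fresh libraries. The bound was at least 15.1-fold without fresh replicate 4 and at least 96.5-fold without fresh replicate 5. The edgeR adjusted p was 0.00803, and 0.0528 with run 2 alone.

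Hoxc8, which acts in the thoracic region and in motor neurons of the brachial cord, had 10.7, 9.62, 13.2, 18.8 and 22.7 CPM in fresh replicates 1 to 5. Cultured replicates 1 to 3 had 5.27, 0.823 and 3.92 CPM. All 3 were under the lowest fresh library. Hoxc8 fell by 2.63 ± 0.79 (SE) on the log2 scale, with an edgeR adjusted p of 0.0371. This call ended without any single fresh library, where adjusted p ran from 0.0635 to 0.144. It also ended with run 2 alone (0.141), with run-1 fresh libraries alone (0.155, fall of 1.70), without scaling factors (0.0588) and with no minimum beyond 1 count (0.0545).

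Hoxb3, which acts in the hindbrain and pharyngeal arches, was scarce in fresh cells. Its counts were 7, 19, 32, 50 and 7 in fresh replicates 1 to 5, and 0 in each cultured library. The level was at least 35.4-fold lower than in run-2 fresh libraries, at least 8.82-fold without fresh replicate 4 and at least 61.1-fold without fresh replicate 5. The edgeR adjusted p was 0.0127, and without fresh replicate 2, 3 or 4 the gene did not pass the count filter. The antisense gene Hoxb3os covers 52.9% of its exon bases, and since counting by strand is not stated, reads of the pair cannot be told apart.

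Hoxc10 had 56.9, 57.0, 89.2, 77.9 and 57.3 CPM in fresh replicates 1 to 5 and 9.38, 11.7 and 38.4 CPM in cultured replicates 1 to 3. Cultured replicate 3 was the highest of its group and still under all fresh libraries. The fitted log2 fold change was -1.77 ± 0.58 (SE), with an edgeR adjusted p of 0.0529, just outside the threshold. Without cultured replicate 3 the value was -2.67 with an edgeR adjusted p of 0.00331. Hoxc10 shares 166 exon bases with an annotated transcript of Hoxc5.

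Hoxc9, a gene of the thoracic region, had 15.8, 15.4, 7.80, 18.8 and 26.4 CPM in fresh replicates 1 to 5 and 4.37, 3.96 and 10.04 CPM in cultured replicates 1 to 3. Fresh replicate 3 lay under cultured replicate 3. The log2 fold change was -1.88 ± 0.65 (SE), with an edgeR adjusted p of 0.0609, and 0.0256 without cultured replicate 3.

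Hoxc5 and Hoxc4, genes of the neck and forelimb level, did not pass the test although their groups did not overlap. Hoxc5 had 12.0, 15.7, 10.2, 6.06 and 12.5 CPM in fresh replicates 1 to 5 and 0.738, 0.412 and 5.56 CPM in cultured replicates 1 to 3. Hoxc4 had 10.997, 8.82, 10.1, 8.40 and 6.32 CPM in fresh replicates and 0.211, 2.42 and 6.17 CPM in cultured ones. In both, cultured replicate 3 came close to the lowest fresh library. The log2 fold changes were -2.05 ± 1.08 and -1.33 ± 1.09 (SE), with edgeR adjusted p of 0.193 and 0.409.

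Hoxa7, the Hoxa gene with the highest fresh level per kb, was not lower. It had 17.3, 19.0, 14.2, 17.6 and 11.1 CPM in fresh replicates 1 to 5 and 40.8, 14.2 and 8.77 CPM in cultured replicates 1 to 3. Cultured replicate 1 lay above all fresh libraries and replicate 3 under all of them. The log2 fold change was 0.56 ± 0.69 (SE, edgeR adjusted p = 0.594), and -0.27 without cultured replicate 1. The antisense RNA Hoxaas3 overlaps 20.4% of its exon bases.

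Hoxa3, a gene of thymus and pharyngeal development, had 4.50, 3.87, 5.34, 7.64 and 5.67 CPM in fresh replicates 1 to 5 and 9.64, 17.5 and 1.68 CPM in cultured replicates 1 to 3. Here too cultured libraries fell on both sides of the fresh range. The log2 fold change was 0.53 ± 0.96 (SE), with an edgeR adjusted p of 0.737, and -0.26 without cultured replicate 2. Annotated genes on the opposite strand overlap its exons.

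Hoxd8 was the one Hoxd gene with at least 5 CPM. It had 3.02, 6.28, 6.66, 8.02 and 6.32 CPM in fresh replicates 1 to 5 and 10.6, 2.42 and 3.46 CPM in cultured replicates 1 to 3. The groups overlapped, with a log2 fold change of -0.38 ± 0.89 (SE) and an edgeR adjusted p of 0.804.

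Hoxa10, which patterns the upper hindlimb and the uterus, had 8.95, 9.55, 9.12, 18.6 and 11.3 CPM in fresh replicates 1 to 5 and 2.27, 9.78 and 1.94 CPM in cultured replicates 1 to 3. Cultured replicate 2 lay within the fresh range and the other two below it. The log2 fold change was -1.68 ± 0.83 (SE), with an edgeR adjusted p of 0.169. Hoxa9, known from blood stem cells and leukaemia, had 6.95, 7.41, 5.94, 11.8 and 4.56 CPM in fresh replicates and 1.32, 5.15 and 3.82 CPM in cultured ones. Its log2 fold change was -1.25 ± 0.85 (SE), with an edgeR adjusted p of 0.311.

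Hoxc11, whose group patterns the lower limb and sacral spine, differed between fresh libraries of the 2 runs. It had 24.9, 16.4 and 22.2 CPM in run-1 fresh replicates, 6.57 and 5.41 CPM in run-2 fresh replicates, and 3.79, 17.4 and 2.60 CPM in cultured replicates 1 to 3. The 2 fresh runs did not overlap. The log2 fold change of culture was 0.41 ± 0.85 (SE, edgeR adjusted p = 0.777) against run-2 fresh libraries and -1.33 against run-1 fresh libraries. Between fresh runs, run 2 against run 1, the log2 fold change was -1.82 ± 0.89 (SE). Its edgeR adjusted p was 0.394, and 0.0275 when fresh libraries were fitted alone, where 2.41% of all genes were lower. Run and the day, animals or sort behind it cannot be told apart.

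No tested Hox gene was called between the fresh runs, against 0.0945% of all genes lower in run 2 and 0.0945% higher. DESeq2 called none of them either, against 3.14% lower and 1.69% higher of all genes, and 2 were lower at an unadjusted p under 0.05, Hoxa13 and Hoxb2, against 10.9% lower and 4.58% higher of all genes. The limb-end genes of group 13 summed to 3.02, 1.40 and 4.56 CPM in run-1 fresh libraries and to 0 in both run-2 fresh libraries. The silent-gene level was raised in the same 3 run-1 libraries, and its part in these counts was not tested. Group 11 summed to 25.1 ± 4.54 CPM in run-1 fresh libraries (SD, n = 3) and 6.31 ± 0.815 CPM in run-2 fresh libraries (SD, n = 2).

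Also tested and not called, with means under 5 CPM, were Hoxa2, Hoxa4, Hoxa5, Hoxa11, Hoxa13, Hoxb2 and Hoxd9. Their log2 fold changes ran from -3.55 to 3.08 with standard errors of 0.84 to 1.98, and edgeR adjusted p from 0.136 to 0.989. Of these, Hoxa5 was below all fresh libraries in culture. The 17 members not tested were Hoxb1, Hoxb4 to Hoxb9, Hoxb13, Hoxc12, Hoxc13, Hoxd1, Hoxd3, Hoxd4 and Hoxd10 to Hoxd13, with 2 to 149 counts over all libraries. Hoxb4, a gene known for the expansion of blood stem cells, had 9, 8, 5, 20 and 107 counts in fresh replicates 1 to 5 and none in culture. Hoxc13, a gene of hair and nail, went the other way, with 4, 8, 6, 0 and 0 counts in fresh replicates and 3, 80 and 37 in cultured ones. With no filter beyond 1 count Hoxc13 was called higher, against 3.6% of all genes. Under the same setting Hoxb4 was among 4 members called lower, against 9.09% of all genes. Hoxd10 had 45 counts in cultured replicate 1 and none in the other cultured libraries. In total 14 of 39 members (35.9%) had no count in any cultured library, against 53.2% of all 45706 lines.

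Cultured libraries differed widely from each other. For the 12 members with at least 5 CPM, the ratio of highest to lowest library had a median of 2.22 in fresh and 5.72 in cultured cells, the latter ranging from 2.53 to 29.3. Among 7244 tested genes of the same CPM range, the medians were 2.29 and 3.14, with genes at 0 in a library left out. Within run-2 fresh libraries they were 1.35 for Hox genes and 1.42 for these genes. The groups hold unlike numbers of libraries, which widens the ratio of the larger group.

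Of 9 listed cofactors of Hox proteins of the TALE class, 8 were tested, 3 fell, none rose and the median log2 fold change was -1.46. Of all genes 18.0% were lower and 8.87% higher, and these shares are the background for each list that follows. Meis1, which binds DNA beside Hox proteins, had 12.2 to 22.1 CPM in fresh and 0.408 to 2.62 CPM in cultured libraries and fell by 4.16 ± 0.88 on the log2 scale (edgeR adjusted p = 0.0092). Pknox1 had 82.7 to 162 CPM in fresh and 15.8 to 47.5 CPM in cultured libraries and fell by 1.59 ± 0.41 on the log2 scale (edgeR adjusted p = 0.0202). The Pknox1 call ended without fresh replicate 4 or 5 or cultured replicate 3 (0.13, 0.072 and 0.0607), and both it and Meis1 ended with run 2 alone (0.0882 and 0.0581). Pbx3, Meis3 and Pknox2 were not called and overlapped between groups, with log2 fold changes of 1.28, 0.63 and -0.39. Meis2 was not called and overlapped too, at -1.33. Pbx2, at -2.03, lay below all fresh libraries in culture but was not called (edgeR adjusted p = 0.0894).

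Of 24 Polycomb genes 6 were lower and 6 higher, with a median of 0.07, against 18.0% and 8.87% of all genes. The silencing subunits Cbx6 and Cbx7 fell by 4.62 ± 0.80 and 3.75 ± 1.02 (SE) on the log2 scale, and Jarid2, which guides the methyltransferase complex, fell by 3.91 ± 0.64. Phc2, a subunit that joins Polycomb complexes together, rose by 2.87 ± 0.33. The edgeR adjusted p were 0.00448, 0.0258, 0.00361 and 7.6e-04. The Cbx7 call ended without fresh replicate 4 or 5 (0.0717 and 0.117), and those of Cbx6 and Cbx7 with run 2 alone (0.0543 and 0.0973).

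Of 15 Trithorax group and other Hox activators, 4 fell and 2 rose, with a median of 0.07, against 18.0% and 8.87% of all genes. The histone acetyltransferase Kat6b fell by 2.24 ± 0.33 (SE) on the log2 scale and Kdm6b, which removes the Polycomb mark, by 1.52 ± 0.27. Wdr5 and Ash2l, subunits of the methyltransferase complexes, rose by 2.53 ± 0.48 and 1.33 ± 0.42. The edgeR adjusted p were 0.00213, 0.00477, 0.00607 and 0.0438. The Ash2l call ended without any single fresh library and without cultured replicate 2 or 3.

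Among 21 other positional transcription factors, 13 were tested, 4 fell, none rose and the median was -1.75, against 18.0% lower and 8.87% higher of all genes. They were Meox2 and Meox1 of the somite, Isl1 of the hindlimb field and Lmx1b of the dorsal limb, and of these all but Meox2 were chosen after their values were seen. Meox2 had 7.81 to 24.5 CPM in fresh libraries and no count in culture. Isl1, Lmx1b and Meox1 had at most 4.08 CPM in any library. Leaving out fresh replicate 2 ended their 3 calls, with edgeR adjusted p of 0.0541, 0.0526 and 0.0522, and other single libraries did so too. Tbx4, which drives hindlimb growth, had 13.4 to 30.9 CPM in fresh libraries and 3.50 to 10.7 CPM in cultured ones, with a log2 fold change of -1.75 ± 0.62 (SE, edgeR adjusted p = 0.0646). Tbx5, its forelimb counterpart, had 71 counts in all, 70 of them in run-1 fresh libraries. Pitx1, which specifies the hindlimb, had 14 counts, all in run-1 fresh libraries.

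Summed markers of several other cell types lay lower in culture, as the Hox sum did. Of 6 fibro-adipogenic markers 4 fell, with sums of 511 to 924 CPM in fresh and 6.98 to 10.3 CPM in cultured libraries and Ly6a at 0 in culture. Of 6 pericyte and smooth muscle markers 5 fell, from 419 to 2462 CPM to 21.3 to 28.5 CPM, with Kcnj8 and Abcc9 at 0. All 5 glial markers fell, from 50.4 to 811 CPM to 0.0527 to 3.47 CPM, with S100b and Sox10 at 0. Of 5 endothelial markers 2 fell, from 78.1 to 119 CPM to 0.721 to 41.2 CPM, with Kdr at 0. Pecam1, an endothelial adhesion gene singled out after its values were seen, went the other way in cultured replicates 1 and 3, with 35.1 and 38.1 CPM. Cultured replicate 2 had 0.103 CPM, under all fresh libraries, which had 0.195 to 4.50 CPM. The log2 fold change of Pecam1 was 5.48 (edgeR adjusted p = 0.0677). Of 3 tenocyte markers 1 fell, from 5.54 to 20.5 CPM to 2.32 to 4.54 CPM, with Tnmd at 0. Of 4 tested blood markers 1 fell, from 22.9 to 68.6 CPM to 0.255 to 5.92 CPM, with Adgre1 and Lyz2 at 0. Myofibre markers did not lie lower, with sums of 8.14 to 18.4 CPM in fresh and 9.99 to 77.6 CPM in cultured libraries, a median log2 fold change of 1.99 and none of 4 called. Of these Acta1, the skeletal muscle actin, also chosen after its values were seen, lay above all fresh libraries in culture, with a log2 fold change of 3.10 and an edgeR adjusted p of 0.0637. Of 8 muscle stem cell markers 6 fell too, from 2513 to 3519 CPM to 599 to 650 CPM. Fresh replicate 1 had the lowest pericyte sum (419 CPM) and glial sum (50.4 CPM), and its Hox sum was 214 CPM, against 223 to 259 CPM in the other fresh libraries. Without scaling factors its Hox sum was not the lowest, at 231 CPM against 188 to 261 CPM in the other fresh libraries. The part of other cells in the Hox differences was not tested.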

How the data were processed

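RNA was amplified as cDNA with NuGEN Ovation v2 before library construction, per the labels' protocols, and no molecular identifier is mentioned, so floors and intervals cover counting error only. A single table of gene-level expected counts was deposited by the authors. STAR, RSEM and mm10 appear in the submitters' processing notes. For both tools the version was not given in the sources used here. RSEM divides reads among genes they fit, so overlapping genes are uncertain.

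After 92 spike-in lines were left out, 45706 lines were used. Expected counts were rounded, filtered with filterByExpr (19054 genes kept) and scaled by TMM. Tests used edgeR 4.0.16 (quasi-likelihood) under R 4.3.3, with run and culture as terms and 5 residual degrees of freedom, and Benjamini-Hochberg adjustment at 0.05. Since run 1 held fresh cells only, the culture term sets cultured cells against run-2 fresh cells. Standard errors are approximate, from fold change and test statistic. The scripts were tested on simulated data. Exon lengths and coordinates are from GENCODE M21, which matched all 39 members.

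A member and a cofactor are not reported here by name. Members and lists were chosen with earlier results of these data known. Full values are given for the 14 tested members that were called or had a mean of at least 5 CPM. In other lists the called genes of largest fold change were named, at most 4 with a mean of 10 CPM or more, and where 5 or fewer were called, the rest were named after their values were seen. Alternatives were DESeq2 1.42.0, no run term, single runs, no scaling, no filter, unrounded counts, a log2 threshold of 1, a replicate block and leaving out each library.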

Additional observations from a re-analysis of the deposited data

Results flagged for a closer look

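Hoxa10 in fresh replicate 4, at 18.6 CPM, stood far from the other 4 fresh libraries, which lay between 8.95 and 11.3 CPM, and its gap to the nearest was 0.752 of the whole range. Such distances were examined for the 14 fully described members and 5 cluster sums in fresh libraries, and 1 of 19 passed. Chance gives about 1 in 20.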

How the results depend on the processing

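With a replicate block over cultured and run-1 fresh libraries of equal number, 1 of 20 tested Hox genes was called lower (Hoxc10), against 7.55% of all genes. The labels do not say whether equal numbers pair samples. Same-numbered deviations correlated at 0.0296, 0.0103 and 0.0108, and the others from -0.0179 to 0.0096. With so few libraries such values cannot decide whether samples are paired. The count of members lower in culture, 4, was 7 with DESeq2 and 1 with run 2 alone. It ran from 1 to 8, over 19 to 26 tested members, when single libraries were left out. The count of members higher, 0, was 1 with no filter and 0 to 2 when single libraries were left out, with Hoxa11 and Hoxc13 called without cultured replicate 1, where 2198 of 21946 genes were. Between fresh runs, 1 member was lower when fresh libraries were fitted alone. Without scaling factors the cultured mean was 106.6 CPM for all Hox genes and 0.168 CPM for Hoxb. The sign turned in 4 Hox genes that were not called and in Hotairm1, which was called. Hoxc11 gave -0.93 with no run term, -1.33 against run-1 fresh libraries, -0.90 without cultured replicate 2 and -1.92 with the replicate block. With single libraries left out, Hoxc11 ran from -0.90 to 0.87, Hoxa3 from -0.26 (without cultured replicate 2) to 1.05 and Hoxa7 from -0.27 (without cultured replicate 1) to 0.96. Hoxd8 gave 0.0805 against run-1 fresh libraries. Hotairm1 gave -0.33 against run-1 fresh libraries and -0.44 with the block. The cause was not tested. Of the other values for single Hox genes, 226 kept direction and side of the threshold, 18 lost a call and 9 gained one.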

Other observations

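Genes that flank the clusters were also measured. Of 15 flanking genes with data, 11 were tested, 1 fell and 3 rose in culture, against 18.0% and 8.87% of all genes, with a median log2 fold change of 0.72. Cbx5 and Hnrnpa1, neighbours of Hoxc that encode a heterochromatin protein and an RNA-binding protein, had 135 to 258 and 143 to 185 CPM in fresh libraries and 408 to 525 and 465 to 529 CPM in cultured ones. They rose by 1.40 ± 0.31 and 1.47 ± 0.22 (SE) on the log2 scale, with edgeR adjusted p of 0.0104 and 0.00255, and the Cbx5 call ended without fresh replicate 5 (0.0745). Mtx2, a mitochondrial import gene beside Hoxd, rose by 1.61 ± 0.49 (edgeR adjusted p = 0.04), which ended with run 2 alone and without any single fresh library. Calcoco1, beside Hoxc, fell by 2.71 ± 0.50 (edgeR adjusted p = 0.00545).

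Of 17 noncoding RNAs of the clusters with a line in the count table, 5 were tested, 1 fell and 1 rose, against 18.0% and 8.87% of all genes. Both are named after their values were seen. Hoxb5os, Mir10a, Mir10b, Mir196a-1 and Mir196a-2 had no count in any library. Hotair, transcribed within Hoxc, had 325, 211, 286, 176 and 208 counts in fresh replicates 1 to 5 and 31, 17 and 0 in cultured ones. It fell by 3.87 ± 1.24 (SE) on the log2 scale with an edgeR adjusted p of 0.0483, and the call ended without any single fresh library and without cultured replicate 2. Hotairm1, of the Hoxa cluster, had 60, 25 and 25 counts in run-1 fresh libraries, 0 and 1 in run-2 fresh libraries and 51, 12 and 35 in culture. Its log2 fold change was 5.43 ± 1.50 (SE) against run-2 fresh libraries, with an edgeR adjusted p of 0.0276, and -0.33 against run-1 fresh libraries. The call ended without any of fresh replicates 1 to 4 (0.0529, 0.0607, 0.0569 and 0.118).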
